A study of Mus musculus with 16 samples.

Results

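The protein components of the cytosolic ribosome were followed in ear skin of ageing mice. The genes were chosen by symbol among the protein-coding genes of the count table: those named Rpl or Rps with a number, together with Rplp0, Rplp1, Rplp2, Rpsa and Fau. The S6 kinases, whose symbols begin with Rps6k, and 5 symbols annotated as pseudogenes were left out. This gave 85 of the 45706 genes in the table, of which 52 belong to the large and 33 to the small subunit. The rule used names alone and no measured value.

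The animals were 8 male C57Bl/6J mice, an inbred strain, and the labels name no engineered allele and no treatment in either group. Each mouse gave an ear clip at 24 months (23.8 to 24.4 months, called young in the labels) and a second one, from its other ear, at 30 months (29.0 to 30.1 months, called old). The 16 libraries, 8 at each age, hold poly(A)-selected RNA of whole ear tissue, sequenced as single reads of 50 bases. Both time points lie late in the life of a mouse, and the younger group is not a young adult.

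The ribosome is built of ribosomal RNA and of a fixed set of small basic proteins, each of which occurs in a defined number in every particle. Their genes are among the most strongly transcribed of the genome, and their mRNAs begin with a run of pyrimidines, the 5′ terminal oligopyrimidine or TOP tract, through which mTOR and the LARP1 protein control how well they are translated. Because mRNA level and translation of these transcripts are set separately, a count of reads describes the message and not the number of ribosomes.

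Since the TOP tract is the start-site feature these mRNAs are known for, the annotated start sites of a few of them are shown first. RefSeq start sites on GRCm38.p6 were found for 65 of the 85 genes. The 30 bases around each start are written 5′ to 3′ on the transcribed strand, with 15 bases before the annotated start and 15 from it onwards, and capitals mark the longest unbroken run of C and T. The first 6 genes have a long run at the start, and the last 4 are a member without one and 3 paralogues that are discussed below.
Fau, chr19:6057932-6057961, plus strand: tgcgcgcccccaCTTCTTCCTCTTTCTTga
Rplp2, chr7:141447636-141447665, plus strand: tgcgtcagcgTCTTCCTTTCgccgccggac
Rpl38, chr11:114668565-114668594, plus strand: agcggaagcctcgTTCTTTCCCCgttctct
Rps6, chr4:86857353-86857382, minus strand: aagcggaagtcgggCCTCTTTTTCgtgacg
Rps27, chr3:90213634-90213663, minus strand: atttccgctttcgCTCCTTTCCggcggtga
Rpl27a, chr7:109519180-109519209, plus strand: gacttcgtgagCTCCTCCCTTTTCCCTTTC
Rpl24, chr16:55966260-55966289, plus strand: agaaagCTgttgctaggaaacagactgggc
Rpl22l1, chr3:28805493-28805522, plus strand: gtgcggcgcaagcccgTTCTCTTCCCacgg
Rpl7l1, chr17:46782642-46782671, minus strand: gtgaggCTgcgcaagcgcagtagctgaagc
Rpl3l, chr17:24727811-24727840, plus strand: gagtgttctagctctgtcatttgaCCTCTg

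A C at the annotated start followed without a break by pyrimidines, at least 5 in all, was present in 13 of the 65 genes, or 20%, against 2.51% of 32851 RefSeq start sites. A run of 8 or more anywhere in the 30 bases was present in 26 genes, or 40%, against 12% of all start sites. The search read the transcribed strand only, and the second pattern includes most of the runs that meet the first. In Rpl27a a run of 19 begins before the annotated start and reaches the edge of the window, and it meets the second pattern only. In Rpl7l1 and Rpl24 the longest run was 2 bases. Most of the 65 annotated starts thus did not meet the first pattern, and whether they mark the position at which transcription begins in this skin was not tested.

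Counts on genes ranged from 22967222 to 36162431 per library, and summary lines for reads outside genes or in overlapping genes took 18.7% to 21.1% of each column. The tissue carried the markers of ear skin: the summed level of 6 basal keratinocyte genes was 8553 to 16921 CPM (counts per gene scaled to an equal library size) and that of 7 genes of differentiated keratinocytes was 15414 to 22353 CPM. Skeletal muscle markers varied widely, from 750.1 to 9828 CPM at 24 months and from 1074 to 7357 CPM at 30 months, with all 9 listed genes detected. A clip of an ear holds several tissues, and a lower count for a group of genes can come from fewer cells of a type or from less RNA per cell, which cannot be told apart in bulk RNA.

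As a group, the 85 genes held shares of the reads that overlapped between the ages, and the spread among the mice was wider than the mean difference between the ages. The share of counts on genes was 1.83% to 2.47% at 24 months (median 2.06%) and 1.84% to 2.85% at 30 months (median 2.09%), and the ranges overlapped almost entirely. The means were 2.06% ± 0.212 (SD, n = 8) and 2.17% ± 0.323 (SD, n = 8). Within mice the mean log2 ratio of the share at 30 months to that at 24 months was 0.073 ± 0.227 (SD, n = 8).

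The direction differed between the mice. The share was higher at 30 months in mouse 64 (2.21% to 2.85%), mouse 21 (1.83% to 2.26%), mouse 14 (2.06% to 2.35%) and mouse 75 (1.92% to 2.14%). It was lower in mouse 13 (2.47% to 1.99%) and mouse 43 (2.06% to 1.92%). Mouse 50 (2.07% to 2.03%) and mouse 29 (1.84% at both ages) differed little. The highest share at 24 months and the highest at 30 months thus came from mouse 13 and mouse 64.

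**Figure D1:**
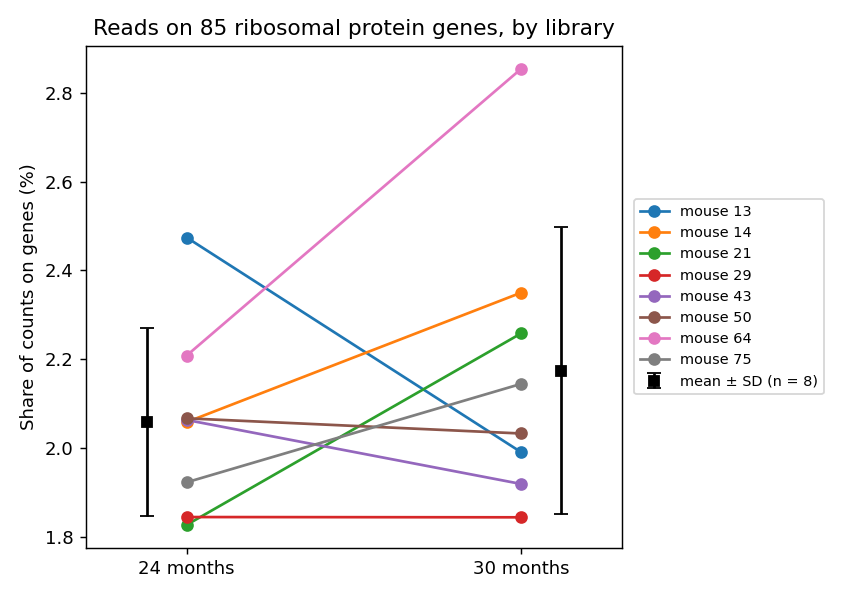
Share of the counts on genes that fell on the 85 cytosolic ribosomal protein genes, in percent (the axis does not start at 0), with the 2 libraries of each mouse joined by a line and black squares for the mean ± SD (n = 8). Lines run upwards in mice 14, 21, 64 and 75 and downwards in mice 13 and 43, and the 30-month library of mouse 64 is the highest at 2.85%.

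Within a mouse nearly all of the genes moved together. Of the 84 genes that passed the filter on low counts, 83 were higher at 30 months in each of mice 21, 64 and 75 and 82 in mouse 14, whereas 4 were higher in each of mice 13 and 43, and 63 in mouse 29 and 36 in mouse 50. The median change on the log2 CPM scale was 0.44 in mouse 64, 0.33 in mouse 21, 0.23 in mouse 14, 0.18 in mouse 75, 0.069 in mouse 29, -0.023 in mouse 50, -0.17 in mouse 43 and -0.26 in mouse 13. Over all genes tested, between 47.2% and 50.9% were higher in any one mouse. The scaling of the libraries places most genes near 0 change, so such a share was largely fixed by it and says nothing about library-wide effects.

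A few genes left the common direction in more than 1 mouse. Rpl28 was higher in mouse 13 and in mouse 43, where most others were lower, and was the 1 member that was higher in at least 7 of the 8 mice, against 6.49% of all genes tested. Rps13 and Rpl39l were lower in mouse 14 and higher in mouse 43. Rpl7l1 was the only member that was lower in mouse 21 and in mouse 64.

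**Figure D2:**
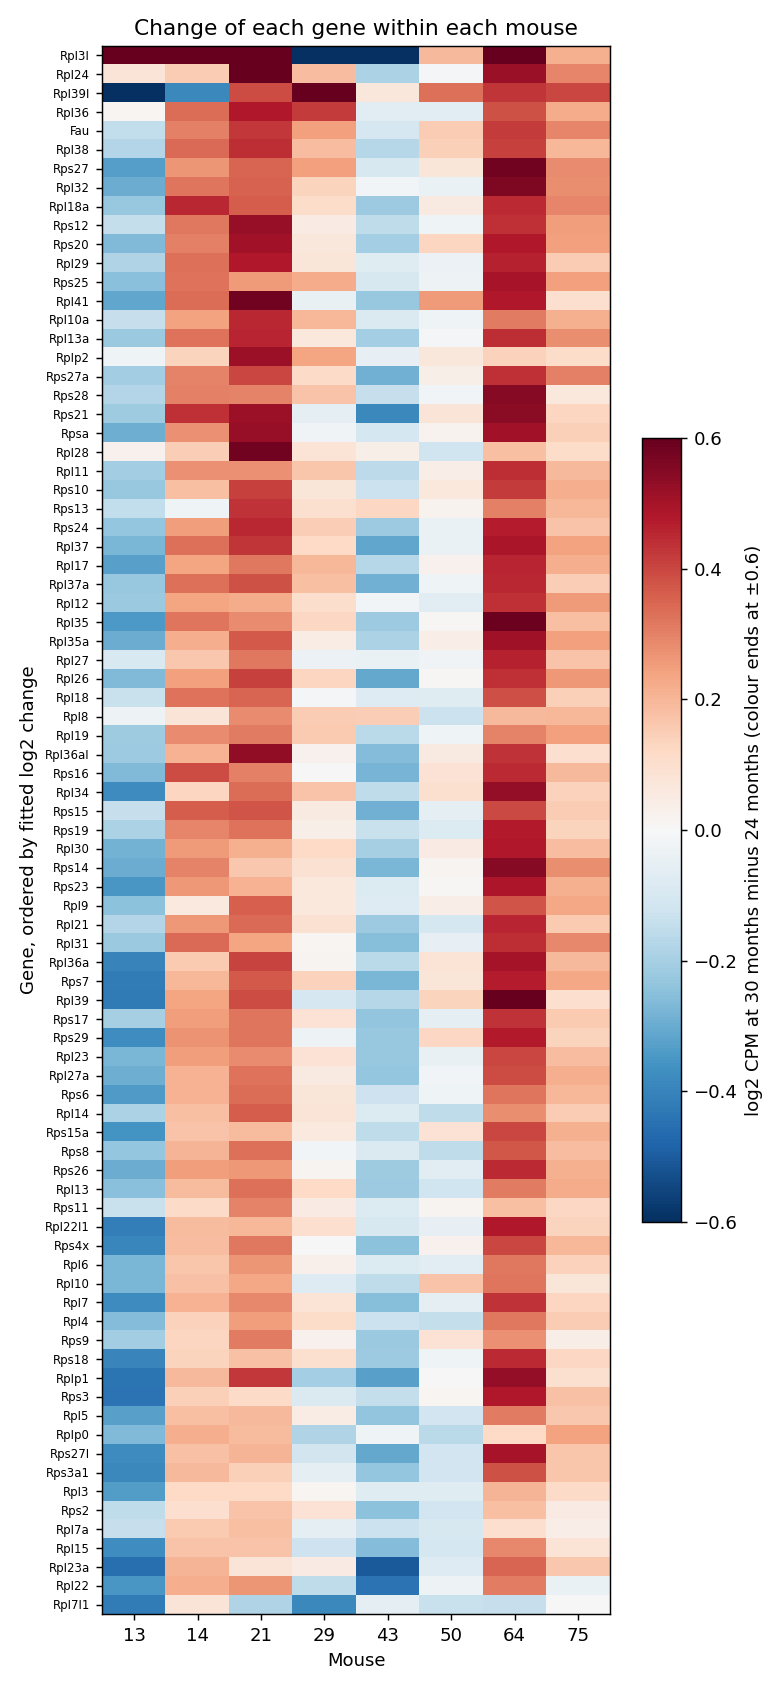
Difference in log2 CPM between 30 and 24 months for 83 genes (rows, ordered by the fitted change) in each of 8 mice (columns), with red for higher and blue for lower at 30 months and colours capped at ±0.6. Columns 14, 21, 64 and 75 are red throughout most rows and columns 13 and 43 blue, while Rpl3l, Rpl39l and Rpl7l1 depart from their columns.

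Across the 16 libraries this coordination was tight. The log2 CPM of a member correlated with the mean of the other members with a median Pearson r of 0.95, and 67 of 84 members had an r of at least 0.9. These values describe 16 libraries from 8 mice, which share library scaling and depth within each point. The SD of a member over the libraries had a median of 0.194 on the log2 scale, against 0.170 for 10345 other coding genes with a mean of 10 CPM or more. Once the mean of all members was subtracted from each library, the median SD was 0.0608.

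The genes that followed the others most closely were Rpl27a (r = 0.99), Rpl37 (r = 0.99) and Rpl13a (r = 0.99), all components of the large subunit. Rpl13a, which is also released from the ribosome to silence inflammatory mRNAs, had 518.6, 608.7 and 717.8 CPM (lowest, median and highest) at 24 months. At 30 months it had 554.4, 631.0 and 909.2 CPM. Only 3 members had an r below 0.5, and all of them are paralogues: Rpl7l1 (r = 0.042), Rpl3l (r = 0.23) and Rpl39l (r = 0.47). The other tested paralogues followed the members more closely: Rpl36al (r = 0.96), Rps27l (r = 0.94) and Rpl22l1 (r = 0.87).

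The comparison of the ages within mice asks whether the message of any ribosomal protein differs between 24 and 30 months beyond the spread among the animals. In the paired edgeR quasi-likelihood fit of all 21526 genes, 0 of 84 members passed the adjusted threshold of 0.05 (0% of all genes tested), and the lowest adjusted p among the members was 0.332. At an unadjusted p under 0.05, 2 members were higher at 30 months (4.86% of all genes) and 1 was lower (7.18%), together 3.57% of the members against 12% of all genes. The members therefore held a smaller share of low p-values than the table as a whole. DESeq2 likewise placed 0 members past the adjusted threshold, where it called 228 of 19529 genes or 1.17%. At an unadjusted p under 0.05 it had 5 members higher (3.32% of 34054 genes) and 0 lower (3.85%), together 5.95% of the members. Those 34054 genes include ones with very low counts, so their shares are not directly comparable with those of edgeR.

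The estimates nevertheless lay mostly on one side of zero. The fitted log2 change, 30 minus 24 months, was above 0 for 80 of 84 members, compared with 51.7% of all genes, and the median was 0.11 for the members and 0.0069 for all genes. All 33 small-subunit genes had a positive estimate (median 0.10, from 0.0097 to 0.20), as did 47 of 51 large-subunit genes (median 0.11, from -0.16 to 0.57). Because the members move together within a mouse, these 80 signs are not independent of each other. The standard errors had a median of 0.0867, 54 estimates exceeded 1 standard error and 6 exceeded 2. No member had 24-month and 30-month libraries that did not overlap (0 of 84, against 0.195% of all genes).

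**Figure D3:**
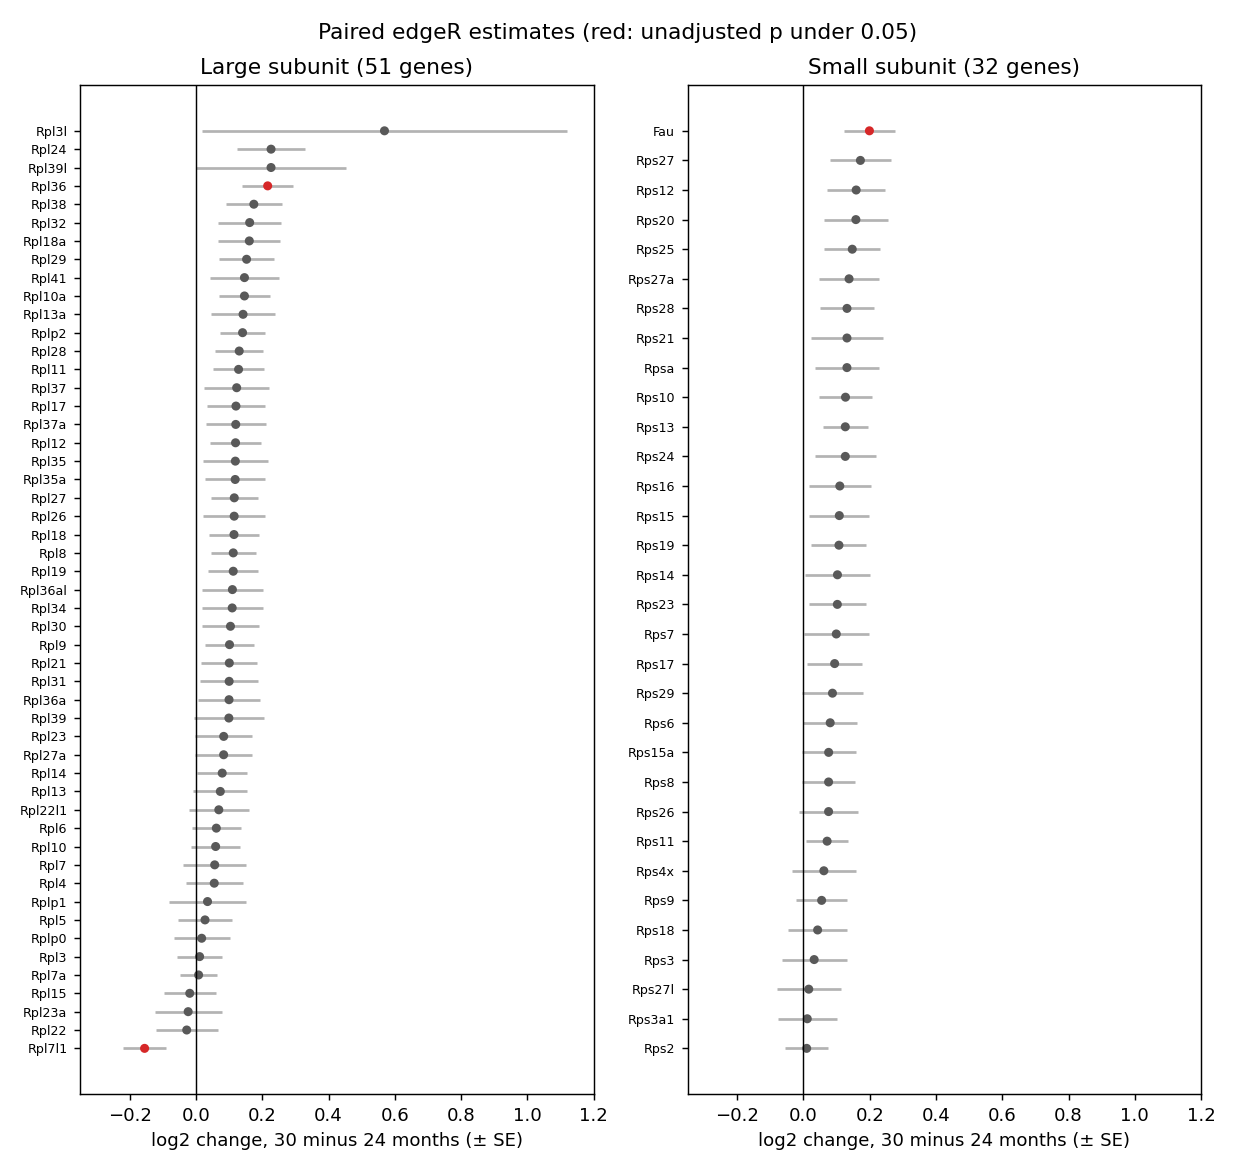
Log2 change between 24 and 30 months with its standard error from the paired edgeR fit, for 51 large-subunit genes (left) and 32 small-subunit genes (right), in red where the unadjusted p was under 0.05. Most points lie between 0 and 0.2 with error bars that reach or approach 0, Rpl3l has the widest bar and Rpl7l1 lies lowest at -0.16.

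How many members stood out depended on single mice. Without mouse 13, 22 members were higher at an unadjusted p under 0.05 (5.79% of all genes in that fit) and the median log2 change was 0.17. Without mouse 43, 13 members were higher (8.99% of all genes) and 1 lower (8.6%), with a median of 0.15. Without mouse 64 1 member was higher, Rpl36 (4.76% of all genes), and the median was 0.053. In none of these fits did a member pass the adjusted threshold. Without the term for the mouse, 4 members were higher (7.93%) and 1 lower (7.59%), 0 passed the adjusted threshold (0.0139% of all genes), and the numbers in either direction were 4 with each of 2 other scalings (11.9% and 12.1%), 2 without a filter on low counts (8.3%) and 2 with age as a continuous covariate (10.9%).

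Of the 3 genes with an unadjusted p under 0.05, Rpl36 encodes a small component of the large subunit. Its levels were 49.6, 59.0 and 68.5 CPM (lowest, median and highest) at 24 months and 57.6, 67.7 and 84.6 CPM at 30 months. It was higher in 6 of 8 mice, with the largest gain in mouse 21 (51.4 to 71.8 CPM) and lower values at 30 months in mice 43 and 50. The log2 change was 0.22 ± 0.077 (SE), with adjusted p = 0.332 (edgeR).

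Fau encodes a fusion of a ubiquitin-like protein with the small-subunit protein eS30, from which the ribosomal part is cleaved. It had 111.1, 128.4 and 146.9 CPM at 24 months and 122.4, 143.2 and 178.8 CPM at 30 months, and was higher in 6 of 8 mice. The exceptions were mice 13 and 43, the same animals in which most members were lower. The log2 change was 0.20 ± 0.076 (SE), with adjusted p = 0.351 (edgeR). Its start site, shown above, carries an unbroken run of 16 pyrimidines.

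Rpl7l1, a paralogue of Rpl7 that takes part in the assembly of the large subunit, was the 1 member that was lower at 30 months at this threshold. It had 53.1, 60.5 and 72.6 CPM at 24 months and 48.4, 53.8 and 63.8 CPM at 30 months, and was higher in 2 of 8 mice, of which mouse 75 differed by little (53.80 and 53.81 CPM). The log2 change was -0.16 ± 0.066 (SE), with adjusted p = 0.391 (edgeR). The 2 largest decreases were in mouse 13 (72.6 to 54.2 CPM) and mouse 29 (63.5 to 48.4 CPM).

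The next lowest p-values belonged to Rpl24, Rplp2 and Rpl38, each higher in 6 of 8 mice. Rpl24, which forms part of a bridge between the subunits, had 16.7, 20.2 and 22.3 CPM at 24 months and 17.9, 21.6 and 29.4 CPM at 30 months, and its log2 estimate was 0.23 ± 0.10 (SE). Rpl38, known from mouse mutants for its role in the translation of Hox mRNAs, had 26.5, 32.0 and 38.0 CPM at 24 months and 29.8, 34.6 and 47.1 CPM at 30 months, with an estimate of 0.17 ± 0.084 (SE). For both the ages overlapped, and the highest 30-month value came from mouse 64.

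The stalk of the large subunit, which recruits translation factors, is made of Rplp0 with paired Rplp1 and Rplp2 proteins. Rplp1 and Rplp0 had the highest levels per length of all members, at 1542 ± 278 and 860.3 ± 79.6 CPM per kb of exon (mean ± SD over 16 libraries). Rpl4, a core protein of the large subunit, came next at 739.6 ± 74.99. The 3 genes kept this order in their means, but Rplp0 (695.1 to 956.0) and Rpl4 (624.0 to 931.6) overlapped, whereas the range of Rplp1 (1111 to 2294) lay above both. Levels per length depend on the length used: per kb of the principal transcript, chosen as an alternative after seeing the data, Rplp1 was again highest (1542), Rplp0 had 1051 and Rpl4 965.1.

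The stalk genes did not share one estimate. Rplp0 had 1292, 1394 and 1557 CPM at 24 months and 1153, 1515 and 1586 CPM at 30 months, with a log2 change of 0.017 ± 0.084 (SE). Rplp1 had 638.6, 741.5 and 902.4 CPM at 24 months and 554.5, 746.3 and 1145 CPM at 30 months, with 0.035 ± 0.12 (SE). Rplp2 had 139.2, 155.8 and 172.9 CPM at 24 months and 149.1, 169.1 and 200.2 CPM at 30 months, with 0.14 ± 0.067 (SE) and adjusted p = 0.437 (edgeR). The differences between these estimates were not tested. Rplp0 (r = 0.64) and Rplp2 (r = 0.79) were also among the 8 members with a correlation to the others below 0.8.

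Rpl5 and Rpl11 travel with 5S ribosomal RNA and bind MDM2 when assembly of the ribosome is disturbed. Rpl5 had 261.5, 307.9 and 358.0 CPM at 24 months and 270.8, 294.5 and 422.5 CPM at 30 months, with a log2 change of 0.027 ± 0.082 (SE). Rpl11 had 110.4, 127.9 and 152.5 CPM at 24 months and 120.7, 133.7 and 192.0 CPM at 30 months, with 0.13 ± 0.078 (SE). Neither gene separated the ages. Rpl10, the protein fitted into the large subunit at the last step of maturation, had an estimate of 0.059 ± 0.073 (SE).

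Among the proteins of the small subunit, Rps6 is the target of the S6 kinases that act downstream of mTOR. It had 195.2, 230.0 and 272.9 CPM at 24 months and 214.7, 236.8 and 305.7 CPM at 30 months, with a log2 change of 0.081 ± 0.082 (SE). Rps19, the gene most often mutated in Diamond-Blackfan anaemia, gave 0.11 ± 0.083 (SE), and Rps3, which also has a function in DNA repair, gave 0.032 ± 0.098 (SE). All 3 were higher in 5 of 8 mice, and their ages overlapped.

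Rps27a, made as a fusion with ubiquitin, had 95.5, 109.9 and 134.1 CPM at 24 months and 97.8, 120.5 and 166.9 CPM at 30 months. Its log2 change was 0.14 ± 0.090 (SE), with higher values in 6 of 8 mice. Rpsa, also known as the laminin receptor, had 212.9, 240.1 and 284.2 CPM at 24 months and 210.0, 252.8 and 351.8 CPM at 30 months, with 0.13 ± 0.096 (SE). Neither passed an unadjusted p under 0.05 (adjusted p = 0.555 and adjusted p = 0.598, edgeR).

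Besides Rpl7l1, the estimates below 0 were those of Rpl22, Rpl23a and Rpl15, each smaller than its standard error. Rpl22, which is dispensable for the ribosome in most tissues and supports T-cell development, had an estimate of -0.028 ± 0.094 (SE) and was higher in 3 of 8 mice. Rpl23a, a protein at the exit of the nascent chain, had -0.024 ± 0.10 (SE) and was higher in 5 of 8 mice. Both estimates turned positive when mouse 13 or mouse 43 was left out (0.029 and 0.037 for Rpl22, 0.050 and 0.051 for Rpl23a).

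Some paralogues of standard ribosomal proteins stood at the other end of the range of levels. Per kb of exon, Rpl39l had the lowest mean, 2.70 ± 0.844 CPM (SD, 16 libraries), followed by Rpl3l with 11.8 ± 8.97, Rpl7l1 with 16.3 ± 1.77 and Rpl22l1 with 17.9 ± 2.55. Rpl39l lay below Rpl7l1 and Rpl22l1 in every library, and the range of Rpl3l overlapped all of the others. The median over the 84 members was 77.7 CPM per kb of exon, and the paralogues Rps27l (68.2) and Rpl36al (74.3) lay near it. Per kb of the principal transcript, Rpl39l (2.79), Rpl3l (14.1) and Rpl7l1 (21.9) were again the 3 lowest, whereas Rpl22l1 had 64.4 and ranked 12 from the lowest, above Rpl24 (31.3). Rpl10l, a retrogene of Rpl10 that serves in the male germ line, had 0 counts in all 16 libraries, which at 3 counts in the smallest library allows up to 0.131 CPM.

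Rpl3l, the paralogue of Rpl3 that replaces it in heart and skeletal muscle, had the largest estimate and the widest error of all members. Its values at 24 months were 7.21, 10.3, 6.42, 12.2, 57.0, 25.2, 7.24 and 12.1 CPM in mice 13, 14, 21, 29, 43, 50, 64 and 75. At 30 months the same mice had 42.4, 31.1, 26.7, 5.58, 8.15, 28.8, 16.4 and 14.2 CPM. The gene was thus high in mouse 43 at 24 months alone and in mouse 13 at 30 months alone, and the log2 change of 0.57 ± 0.55 (SE) was about as large as its error (adjusted p = 0.690, edgeR).

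Leaving out mouse 43 raised the estimate for Rpl3l to 0.98 and brought it to an unadjusted p under 0.05, and leaving out mouse 13 lowered it to 0.27. Skeletal muscle markers moved with it. Their summed level went from 880.6 to 7357 CPM in mouse 13 and from 9828 to 1074 CPM in mouse 43, and over the 16 libraries log2 Rpl3l correlated with the log2 sum of the 9 markers with r = 0.95, where points share the tissue piece and the library. Rpl3 itself had 217.4, 237.7 and 272.8 CPM at 24 months and 215.9, 234.7 and 288.2 CPM at 30 months, with a log2 change of 0.011 ± 0.068 (SE). Per kb of exon, Rpl3l stood at 5.11% to 47.3% of Rpl3 at 24 months and at 4.74% to 37.9% at 30 months. By principal transcript length the median percentages were 4.66% and 8.35%, against 9.16% and 16.4% by exon length. Pseudogene copies named after Rpl3 held 72.95% of the counts on that gene and its copies, while none is named after Rpl3l. With the copies added, counts on Rpl3l, not scaled by length, were 2.28% of those on Rpl3. The level of Rpl3l relative to Rpl3 is therefore uncertain.

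Rps27l, a p53-regulated paralogue of Rps27, had the ratio to its parent whose direction of change was shared by the most mice. Per kb of exon it stood at 57.8%, 63.2% and 69.3% of Rps27 (lowest, median and highest) at 24 months and at 50.9%, 56.5% and 65.2% at 30 months. The ratio was lower at 30 months in 8 of 8 mice, although the ranges overlapped. Rps27 alone had a log2 change of 0.17 ± 0.092 (SE), from 96.9, 107.4 and 139.7 CPM to 106.7, 118.1 and 190.0 CPM, and Rps27l had 0.016 ± 0.096 (SE). This shared direction was seen after the values were known and was not tested. The principal transcripts have 345 bases in Rps27 and 499 in Rps27l, and with these lengths the medians were 34.2% at 24 months and 30.6% at 30 months. The length used scales both ages alike and leaves the direction within each mouse as it was.

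The other pairs are given for comparison, and their percentages depend on the length used. Rpl7l1 was at 8.49% to 12.4% of Rpl7 at 24 months and at 6.01% to 10.3% at 30 months, lower in 7 of 8 mice. By principal transcript length its medians were 6.07% and 5.39%, against 10.5% and 9.28% by exon length. For Rpl36al the order of the pair turned with the length: its median was 166% of Rpl36a at 24 months and 165% at 30 months by exon length, and 51.4% and 51.1% by principal transcript length. Copies named after Rpl36a held 82.9% of the counts on that gene and its copies, while none is named after Rpl36al, so which of the pair had the higher level is not settled here. Rpl22l1 had medians of 19.7% and 20.9% of Rpl22 by exon length and of 49.99% and 52.9% by principal transcript length. Rpl39l had medians of 2.49% and 2.54% of Rpl39 by exon length and of 1.10% and 1.12% by principal transcript length. Copies named after Rpl39 held 56.6% of the counts on that gene and its copies, and none is named after Rpl39l. With the copies added, counts on Rpl39l, not scaled by length, were 0.669% of those on Rpl39. Rpl22l1 carries a run of 10 pyrimidines from the second base of its annotated start, and Rpl3l and Rpl7l1 have runs of 5 and 2 in the windows shown above.

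A limit of these counts lies in the many processed copies of ribosomal protein genes. The table lists 275 such copies: 5 symbols of the naming rule that are annotated as pseudogenes, and otherwise genes whose symbols mark them as copies. Of the 275, 6 were annotated as coding and 262 had counts. They took 1.39% to 2.23% of the counts of a library, against 1.83% to 2.85% on the members themselves. For 59 members at least 1 copy is named after them, and for 34 of 84 the copies held over 50% of the counts on gene and copies together. The share was highest for Rps12 (90.7%), Rpl31 (89.1%) and Rps13 (88.6%), and it was 78.6% for Rpl36, 83.8% for Rpl38 and 8.60% for Rplp0. Fau (0.0283%) and Rplp1 (1.87%) had few counts on named copies, and no copy is named after Rpl4. Apart from the 5 taken by annotation, copies were found by symbol alone and those under other names were not counted, so a low share can reflect naming.

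**Figure D4:**
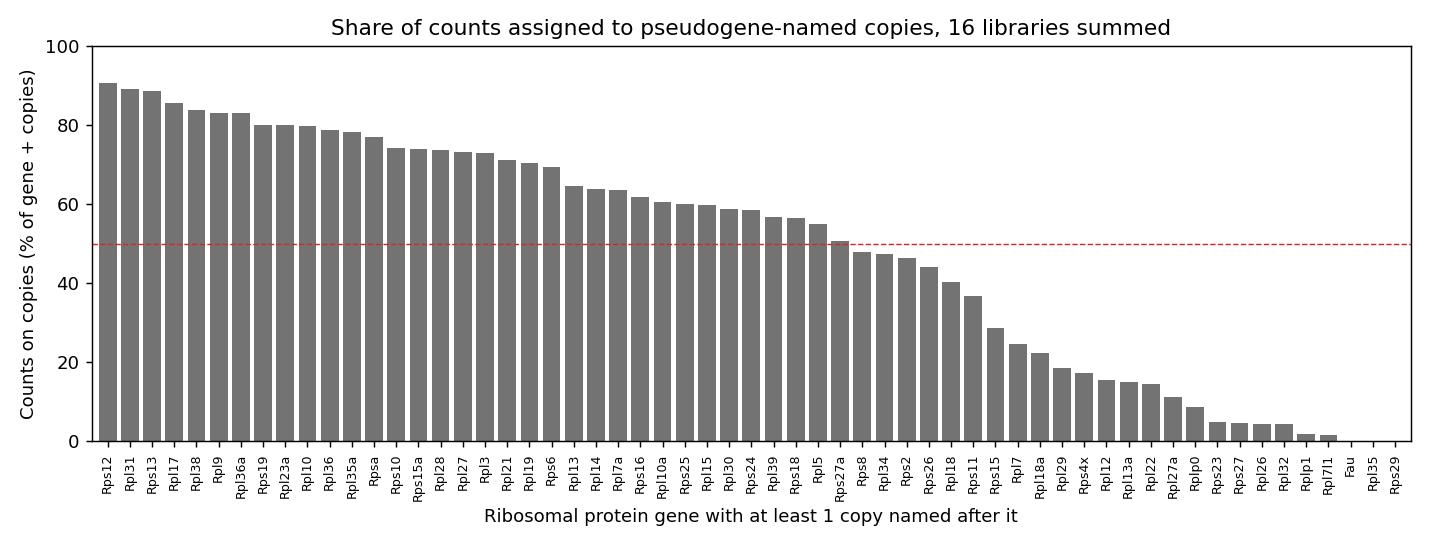
Share of counts on pseudogene-named copies, in percent of the counts on the gene and its copies summed over 16 libraries, for each ribosomal protein gene that has a named copy (bars from 0). Bars run from 90.7% for Rps12 to near 0 for Fau, Rpl35 and Rps29, and 34 genes exceed the dashed line at 50%.

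Reads that map to a gene and to a copy alike cannot be assigned from these counts, so levels of single members are uncertain where the share is large. Members with over 50% on named copies had a median level of 57.1 CPM per kb of exon. Those with under 5%, which include members without a named copy, had 107.6, with 34 genes in each class. Over 84 members the share and the level had a Spearman correlation of -0.32. Per kb of the principal transcript the medians were 150.0 and 200.2 and the correlation was -0.26. The median log2 change was 0.11 in both classes. When the counts of the named copies were added to the parent, the same 3 members had an unadjusted p under 0.05 (12.2% of all genes). The median log2 change was then 0.10, and this alternative was chosen after seeing the data.

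Transcript length ran alongside the pattern. The principal transcripts of the members had a median of 882 bases (345 to 5179), against 3164 bases in other coding genes. Other coding genes under 800 bases (238 genes, mean of 10 CPM or more) had a median log2 change of 0.11 and a positive estimate in 87.8%, while those of 6000 bases or more (1418 genes) had -0.056 and 33.7%. In mice 13, 14, 21, 29, 43, 50, 64 and 75 the median change of the short genes was -0.049, 0.23, 0.35, -0.041, -0.29, 0.071, 0.33 and 0.14, with the sign of the ribosomal protein genes in 6 of 8 mice. In the next longer class, which starts at 800 bases (1100 genes, median length 1202 bases), 70.7% of the estimates were positive. Its median change in the same mice was -0.024, 0.10, 0.16, 0.0064, -0.064, -0.0040, 0.15 and 0.092. That class had the sign of the members in 8 of 8 mice, and genes of 6000 bases or more had it in 2 of 8. Among the members themselves length and change had a Spearman correlation of -0.22 (84 genes).

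**Figure D5:**
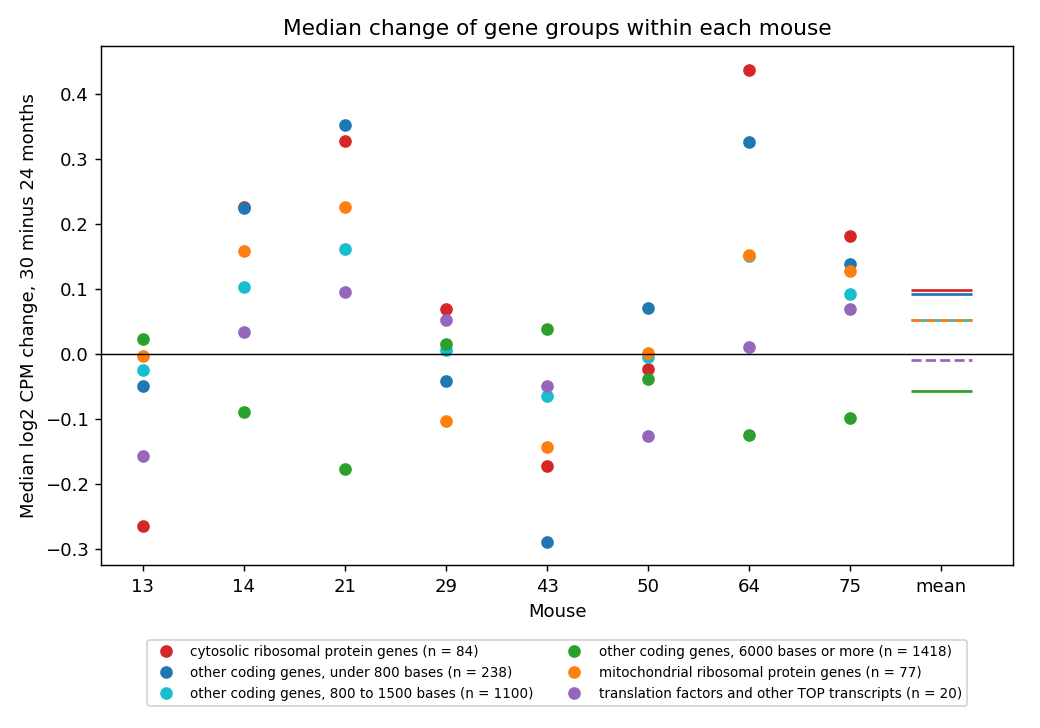
Median log2 CPM change from 24 to 30 months in each of 8 mice for 6 groups of genes, with short bars at the right for the mean over mice. Cytosolic ribosomal protein genes (red) and other coding genes under 800 bases (blue) lie on the same side of 0 in 6 mice with means of 0.098 and 0.092, and genes of 6000 bases or more (green) have a mean of -0.056.

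When trends of the counts on exon length and GC content were removed in each library, 73 of 84 members had a positive estimate and the median was 0.073. In that fit 0 members were higher (4.5% of all genes) and 1 was lower (7.37%) at an unadjusted p under 0.05. With the length of the principal transcript in place of the summed exons, chosen after seeing the data, 59 were positive, the median was 0.024 and no member had an unadjusted p under 0.05 (11.6% of all genes). Whether length, RNA quality or library preparation has a part in the direction of each mouse was not tested. Fat cell markers had the sign of the members in 7 of 8 mice, the most of any cell type list, with 1 to 6 in the others. Their sum went from 56.7 to 166.1 CPM in mouse 64 and from 113.8 to 27.6 CPM in mouse 43. In mouse 29 it went from 67.5 to 183.9 CPM, while the share of the members was 1.84% at both ages. The part of fat cells was not tested either.

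Other genes of the translation apparatus were set beside the members. Of 77 mitochondrial ribosomal protein genes, which serve the separate ribosome of that organelle, 6 were higher and 1 lower at an unadjusted p under 0.05 (9.09%, against 12% of all genes), with a median of 0.053. Translation factors and other mRNAs listed as having a TOP tract had 0 of 20 in either direction and a median of -0.0023. Pabpc1, the poly(A)-binding protein, gave -0.10 ± 0.066 (SE) and Eef1g, a subunit of elongation factor 1, gave -0.12 ± 0.085 (SE). The genes of this group were listed by name, and their start sites were not examined separately. The group had estimates on both sides of 0, with 10 of 20 positive. Nevertheless its median had the sign of the members in 8 of 8 mice (from -0.16 in mouse 13 to 0.095 in mouse 21). The 1100 other coding genes of the class that starts at 800 bases, chosen by length and not by the tract, also had 8 of 8. Whether the tract has a part in the shared sign was not tested.

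Of 28 initiation and termination factors, 1 was higher, Eif1, which selects the start codon. It had 128.1, 134.4 and 153.8 CPM at 24 months and 145.3, 166.3 and 206.0 CPM at 30 months and was higher in 8 of 8 mice, with a log2 change of 0.28 ± 0.072 (SE), adjusted p = 0.239 (edgeR). Of 71 genes of ribosome biogenesis, 4 were higher and 1 lower (7.04%), with a median of 0.048. They include Eif6, which keeps the large subunit from joining too early (0.19 ± 0.060, SE).

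The genes that set ribosome production, mTOR with its partners and MYC, gave 4 higher and 1 lower of 19 (26.3%, against 12% of all genes). Myc was higher in 7 of 8 mice (0.37 ± 0.096, SE; adjusted p = 0.240, edgeR) and Eif4ebp1, a repressor of cap-dependent initiation that mTOR inactivates, in 8 of 8 (0.35 ± 0.12, SE; adjusted p = 0.312, edgeR). Mlst8, a subunit of both mTOR complexes, was lower in 8 of 8 mice, from 18.7, 22.2 and 23.8 CPM at 24 months to 11.2, 17.8 and 19.5 CPM at 30 months, with -0.37 ± 0.099 (SE) and adjusted p = 0.259 (edgeR). None passed the adjusted threshold in edgeR, and Myc and Eif1 did in DESeq2.

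The 10 coding genes whose log2 CPM followed the mean of the members most closely over the 16 libraries, among 10407 with a mean of 10 CPM or more, included 2 copies of ribosomal protein genes annotated as coding, Rps12-ps3 (r = 0.99) and Rpl9-ps6 (r = 0.96). The unnamed models Gm2000 (r = 0.99) and Gm11808 (r = 0.96) were also among them. The others were Eif3k (r = 0.97), Txndc17 (r = 0.97), Rack1 (r = 0.97), Tomm7 (r = 0.96), Pfdn5 (r = 0.96) and Srp9 (r = 0.96). Rack1 is a protein of the small subunit that the naming rule does not reach, and its log2 change was 0.057 ± 0.083 (SE). Eif3k, a subunit of initiation factor 3, gave the same size of change at 0.057 ± 0.071 (SE).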

How the data were processed

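Per the labels and the study's methods, total RNA of ear clips was turned into libraries with the TruSeq RNA kit v2 and sequenced as single reads of 50 bases. The values the authors deposited are raw counts per gene in 16 libraries, on GRCm38. The submitters' processing notes list CASAVA 1.8.4, TopHat2 2.1.0 and HTSeq 0.6.1p1; the strand setting is not given in the sources used here, so overlapping and antisense genes are uncertain. GENCODE M21, on the same build, gave symbols, positions and lengths for 45143 of 45706 identifiers. Lines that name no gene (18.7% to 21.1% of each column) were dropped.

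The count model was the quasi-likelihood fit of edgeR 4.0.16 in R 4.3.3, with the mouse as a block, TMM scaling and filterByExpr, and p-values were adjusted by Benjamini-Hochberg over 21526 genes, with a threshold of 0.05. The test was checked on simulated counts. CPM are TMM-scaled; changes within a mouse are differences of log2(CPM + 0.5). DESeq2 1.42.0 was an alternative. Pairing comes from the animal: both libraries of a mouse carry its number. Deviations from the age means correlated within mice between -0.43 (mouse 43) and 0.32 (mouse 75). Tables were handled in Python 3.11.15. Reads are not independent molecules, and limits for 0 counts cover counting error only.

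Members, gene lists and named genes were chosen with earlier results of these data known, so a direction seen here is not independent evidence. Members were named by lowest p (6), largest estimates in each direction (3, mean of 10 CPM or more), highest and lowest level per length (3), correlation with the other members (3), paralogues with their parents, and roles; outside the members, the 10 most alike coding genes and the 3 lowest p-values of each list were eligible. Rpl15, Rpl28, Rpl31, Rpl35, Rps12, Rps13 and Rps29 were named after their values were seen. 1 member is counted but not reported by name and not drawn.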

Additional observations from a re-analysis of the deposited data

Results flagged for a closer look

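Of 100 sets of 8 libraries examined for a value far from the rest (the gap to the nearest value over the whole range above 0.526, Dixon's 95% limit), 8 were marked, where chance gives about 1 in 20, or 5. In 6 of them the far library was that of mouse 64 at 30 months, which had the highest value for Rps3 (1492 CPM, next 1106), Rpl7 (651.4, next 512.7), Rpl39 (227.8, next 158.6), Rps27 (190.0, next 127.2), Rpl36a (107.2, next 82.7) and Rpl22l1 (51.1, next 37.9). This is the library with the highest share of reads on ribosomal protein genes. The sets share libraries and the members move together, so the sets are not independent and 8 marked against 5 by chance is no test. Rpl3l was far from the rest in mouse 43 at 24 months (57.0 CPM, next 25.2), the library with the highest sum of skeletal muscle markers. Rpl7l1 was highest in mouse 14 at 30 months (63.8 CPM, next 55.2).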

How the results depend on the processing

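No member passed the adjusted threshold under any alternative run. The median log2 change of the members stayed above 0: 0.099 to 0.115 under the other scalings, DESeq2, no filter, age as a continuous covariate, no block and copies added, 0.073 and 0.024 without length and GC trends, and 0.053 to 0.166 with each mouse left out; the mean log2 ratio of their summed share was 0.030 to 0.128 then. Members higher at an unadjusted p under 0.05 numbered 2 in the paired edgeR fit, 5 with DESeq2, 0 in both fits without length and GC trends, and 1 to 22 with each mouse left out. Members lower numbered 1, and 0 with DESeq2, without the filter, with continuous age and with principal-transcript length and GC removed, and 0 to 1 with each mouse left out. Without the mouse block, 4 were higher and 1 lower, and 3 genes of the whole table passed the adjusted threshold; the pairing changed no call of a member at the adjusted threshold. Positive estimates turned negative in 7 members without length and GC trends and in 21 with principal-transcript length. Among the named members these were Rpl3 (-0.014), Rplp0 (-0.046) and Rplp1 (-0.040) in the first fit, and in the second Rpl10 (-0.014), Rpl3 (-0.062), Rpl7 (-0.013), Rplp0 (-0.072), Rplp1 (-0.070), Rps27l (-0.042) and Rps6 (-0.019). With a mouse left out the estimates ranged for Rpl22 from -0.076 to 0.037, Rpl23a from -0.078 to 0.051, Rpl3 from -0.017 to 0.071, Rpl5 from -0.013 to 0.088, Rplp0 from -0.012 to 0.068, Rplp1 from -0.036 to 0.11, Rps27l from -0.052 to 0.084 and Rps3 from -0.032 to 0.11. The cause was not tested. With standard errors near 0.0867, a log2 change of the size of the median of the members could not be resolved for a single gene.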
